A study of Mus musculus with 8 samples.

Results

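Complex I, the NADH:ubiquinone oxidoreductase of the inner mitochondrial membrane, is described here through its nuclear genes in neonatal mouse heart muscle cells. Every entry of the deposited count table whose symbol begins with Nduf and carries no pseudogene mark (-ps) was taken, which gave 45 of 48440 entries. They comprise core and accessory subunits, assembly factors named Ndufaf, and Ndufa4 with its paralog Ndufa4l2. RNA had been sequenced from cardiomyocytes purified from hearts of C57BL6/J pups at postnatal day 2. Each of litters 1 to 4 gave 1 male and 1 female library, so that 8 libraries form 4 groups of 2 by litter and 2 groups of 4 by sex. A library is called a pup below, although the sample titles do not say whether it holds 1 pup or several. All 8 share strain, age and tissue, and the labels name no treatment, no engineered allele and no method of purification. The litter therefore stands for whatever its pups and their handling had in common, and the labels name no other batch.

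Complex I passes electrons from NADH through flavin and iron-sulfur clusters in its matrix arm to ubiquinone, and its membrane arm pumps protons. The core of the matrix arm and all accessory subunits are encoded in the nucleus, while the core of the membrane arm is encoded by the mt-Nd genes of mitochondrial DNA. Assembly factors join the modules and leave the finished enzyme. In the newborn heart, a shift from glycolysis towards fatty acid oxidation makes the respiratory chain the main source of ATP.

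Promoters are shown first for genes chosen after their litter differences were seen, because transcription factor NRF1 is known to act on genes of the respiratory chain. Of the 45 genes, 39 matched by symbol to a RefSeq promoter (GRCm38.p6, 250 bases before to 50 bases after the annotated start). The other 6 were not used here. The strict NRF1 palindrome, 10 bases long and in capitals in the sequences of these genes, was found in 3 of the 39 (7.69%), Ndufa11, Ndufaf4 and Ndufaf5, against 1.07% of the 27025 genes with a promoter and 2.3% of the 9866 of these whose expression was tested. It began 60 bases before the start in Ndufa11, 113 bases before it in Ndufaf4 and 16 bases after it in Ndufaf5. Capitals mark motif matches. Bases that lie in an annotated exon were left out, except for the short stretch of Ndufaf5, whose match is in exon sequence. The stretches are chr17:56717686-56717761 on the plus strand, chr4:24897833-24898082 on the plus strand and chr2:140170652-140170681 on the plus strand.
Ndufa11: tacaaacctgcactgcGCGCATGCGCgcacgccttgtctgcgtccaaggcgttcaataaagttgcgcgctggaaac
Ndufaf4: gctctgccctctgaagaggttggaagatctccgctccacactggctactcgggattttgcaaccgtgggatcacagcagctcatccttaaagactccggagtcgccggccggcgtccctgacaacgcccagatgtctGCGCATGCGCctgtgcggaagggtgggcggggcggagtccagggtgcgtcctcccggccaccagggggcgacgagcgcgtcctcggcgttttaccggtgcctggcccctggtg
Ndufaf5: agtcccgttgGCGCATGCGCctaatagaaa

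For contrast, the promoter of Ndufs5 (chr4:123718203-123718436, minus strand) holds, both on its opposite strand, a looser match, to the palindrome with 1 base left free, and a match to the estrogen-related receptor core AAGGTCA. The promoter of Ndufb10 (chr17:24724479-24724673, minus strand) holds neither and matched none of the 5 motifs searched.
Ndufs5: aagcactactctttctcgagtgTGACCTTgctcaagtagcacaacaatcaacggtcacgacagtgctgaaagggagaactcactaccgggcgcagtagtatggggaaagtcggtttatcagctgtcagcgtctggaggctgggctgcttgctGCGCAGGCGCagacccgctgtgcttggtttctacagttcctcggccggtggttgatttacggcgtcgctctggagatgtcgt
Ndufb10: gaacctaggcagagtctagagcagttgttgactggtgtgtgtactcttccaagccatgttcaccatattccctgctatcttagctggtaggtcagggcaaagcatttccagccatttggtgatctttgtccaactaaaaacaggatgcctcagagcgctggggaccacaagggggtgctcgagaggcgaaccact

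Each motif was sought on either strand, and each strict palindrome also matches the looser form. The looser form was present in 9 of the 39 promoters (23.1%) and in 11.6% of those of tested genes. AAGGTCA was found in 3 (7.69%, against 3.95%) and CCGGAAG, the core letters bound by ETS factors such as GABP, in 5 (12.8%, against 19.9%). AAGATGG, used for YY1, was found in 7 (17.9%, against 8.38%), always after the start, and its letters include ATG. Median GC content was 59.3% in these promoters and 52.7% in all. These letters describe the windows and show no binding, and their relation to expression was not tested.

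Total counts were 14226342 to 24910243 per library, and the female of litter 3 was the shallowest. The 45 genes drew between 1.02% and 1.22% of all counts, and transcripts of mitochondrial DNA drew 13.4% to 18.5%, the most in the male of litter 4. The 10 cardiomyocyte markers, among them troponin and myosin genes, summed to 65206 to 87186 CPM (counts scaled to a common library size after TMM) in the 8 libraries. Markers of other cells were far lower, at 41.7 to 262 CPM for 9 fibroblast genes, 16.0 to 148 CPM for 8 endothelial genes and 479 to 606 CPM for 7 mural genes. Macrophage markers summed to 3.80 to 9.15 CPM and erythroid markers to 98.5 to 531 CPM, and none of these markers was at 0 in every library.

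Levels were compared between genes as RPKM, the count divided by exon length and by library total, over all 8 libraries. Ndufb9, a membrane-arm subunit, was highest at 518 ± 42.3 RPKM (SD, n = 8) and ranged from 462 to 581. Below it were Ndufb11 at 431 ± 30.7, Ndufa4 at 416 ± 32.0 and Ndufb10 at 348 ± 47.2 RPKM. Neighbours in this order overlapped in their range over the libraries. The median over the 45 genes was 131 RPKM.

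Assembly factors, which act in passing and are not part of the finished enzyme, were at the lower end. The 7 genes named Ndufaf ran from 5.55 ± 0.726 RPKM in Ndufaf2 to 31.5 ± 2.88 RPKM in Ndufaf1. Among the subunits, Ndufb2 at 8.50 ± 0.872, Ndufb4 at 10.9 ± 0.914 and the acyl carrier Ndufab1 at 22.6 ± 1.52 RPKM lay below Ndufaf1. For Ndufab1 this held only with all exon bases as length. The low rank of Ndufb2 rests on its annotated length, 5628 exon bases and 4371 in its longest transcript. Before division by length it had 47.9 CPM, close to the 47.3 CPM of Ndufaf1. Of the 100-base windows of the longest Ndufb4 transcript, 33.4% also occur in Ndufb4c, and 80.5% of those of Ndufaf2 occur in other genes, chiefly B230220B15Rik on the opposite strand, so the levels of both are uncertain. Exons of 17 of the 45 genes overlap a gene on the opposite strand. Whether counting used strand is not given in the sources used here. Ndufa4l2, known as a hypoxia-induced paralog of Ndufa4, was barely counted. Litters 1 to 4 gave 9, 14, 5 and 7 counts in males, and their females 10, 23, 2 and 9. It did not pass the filter on low counts and was not tested in the main fit, which left 44 genes. With the longest transcript as length in place of all exon bases, Ndufaf7, Ndufb2, Ndufaf2 and Ndufa4l2 kept the lowest ranks, 42 to 45, and Ndufs1 moved from rank 28 to rank 15. The order at the top also changed. Ndufb9 stayed first and Ndufa4 at rank 3, while Ndufb10 moved from rank 4 to 2, Ndufb11 from 2 to 6 and Ndufv1 from 10 to 4, and Ndufab1, at 44.7 RPKM, lay above Ndufaf1, at 31.9 RPKM.

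**Figure D1:**
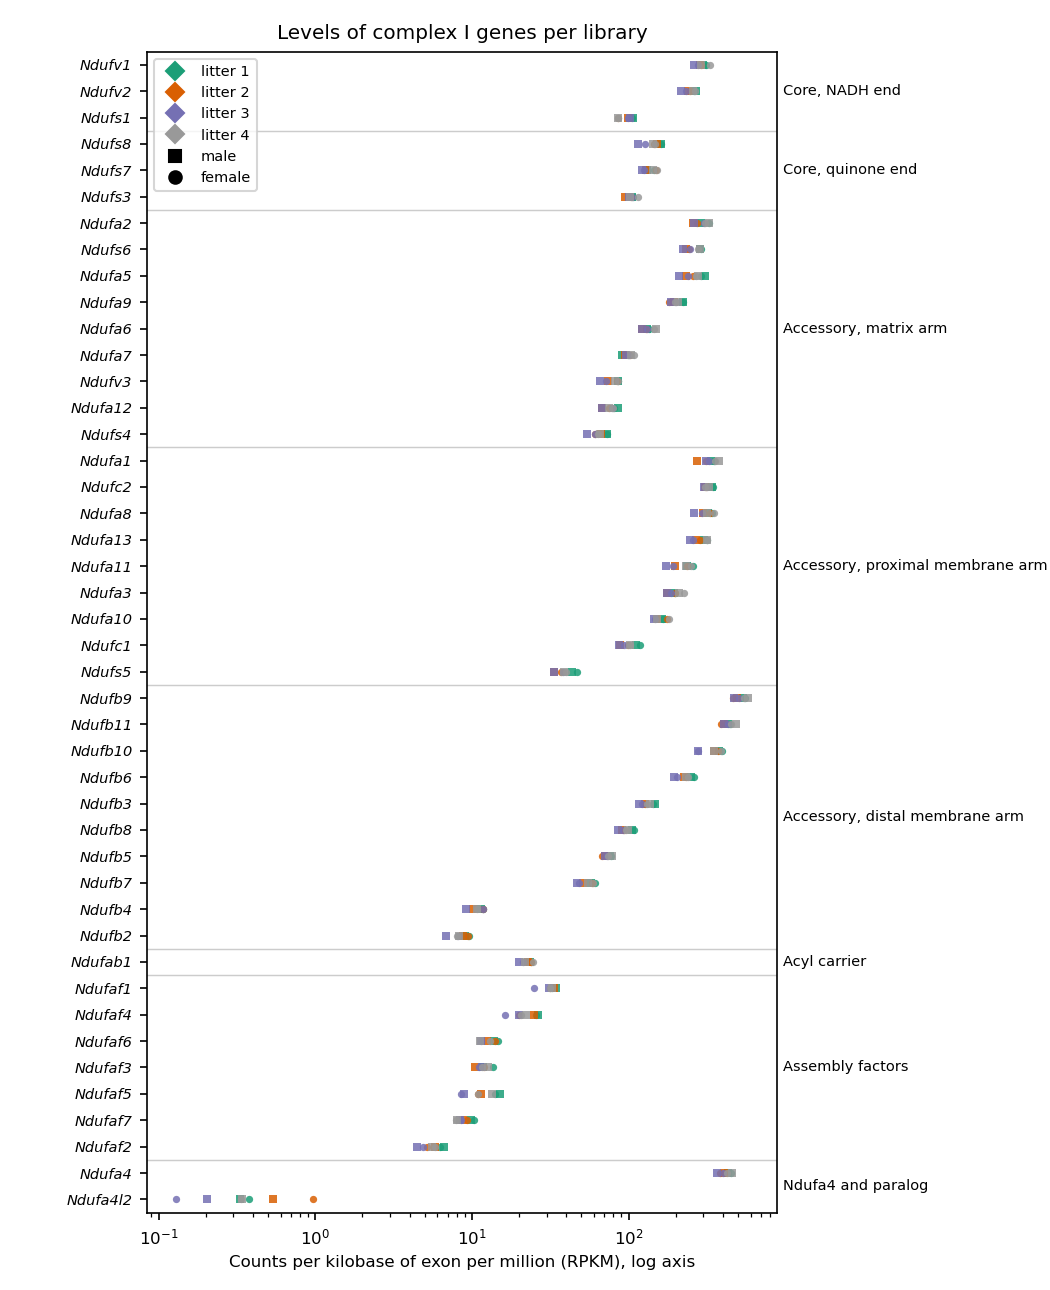
Level of 44 of the 45 genes in each library, as RPKM on a log axis, grouped by role. Points are single libraries, coloured by litter with squares for males and circles for females. Subunits of both arms mostly lie above the assembly factors, and Ndufa4l2 lies below all others.

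The litters were compared first, with sex as a term in the model. The 3 litter coefficients, tested jointly, were past the threshold (edgeR quasi-likelihood F test, Benjamini-Hochberg adjusted p under 0.05) for 32 of the 44 genes, or 72.7%, against 32.1% of the 13771 genes tested. That excess depends on the scaling: with libraries scaled to cardiomyocyte markers 6 of the 44 passed, against 47.1% of all genes, and scaled to the summed complex I genes 6 passed, against 52.6%. At TMM scaling, among the 7313 genes with a mean count at least that of the lowest tested complex I gene, 39.7% were past it. The spread between the highest and the lowest litter had a median of 0.33 on the log2 scale, no larger than the 0.37 over all genes. The 3 smallest adjusted p-values belonged to Ndufb10 (0.000676), Ndufa11 (0.0012) and Ndufaf5 (0.00135), followed by Ndufa13, Ndufs8, Ndufaf4, Ndufs6 and Ndufa5. Without the male of litter 1, its female or the male of litter 3, the median spread was 0.32, 0.34 and 0.32. Over all genes it was then 0.40, 0.39 and 0.41. As over all genes, the count among the 44 fell in each of these fits, from 32. It was 12 without both pups of litter 3, against 13.7% of all genes, and 14 of the 32 genes were called whichever of the 8 libraries was dropped.

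At the usual scaling (TMM, which takes most genes as unchanged), though not when libraries are scaled to cardiomyocyte markers, litter 3 had the lowest levels. Against the mean of litters 1, 2 and 4, the contrast for litter 3 was below 0 for 43 of the 44 genes, with a median of -0.22 and a range from -0.57 to 0.05, beside a median of 0.00013 over all genes. It was past the threshold and negative for 26 genes (59.1%) and past it and positive for 0, against 14.8% and 13.6% of all tested genes (15.8% and 17.5% of the 7313 genes above). Both pups of litter 3 lay below all other 6 libraries in 21 genes and above them in 0, against 16.4% and 15.1% of all genes. The direction depends on the scaling: with libraries scaled to the summed cardiomyocyte markers, which were themselves lower in litter 3 at 65206 to 65931 CPM against 75526 to 87186 CPM, 0 of the 44 fell, 4 rose and 11 were below 0, while 52.5% of all genes were called in either direction. That scaling moved the median of all genes to 0.29 and of complex I genes to 0.07. A scaling shifts all genes of a library alike, so the distance between these medians, -0.22, is nearly fixed and is no check of either scaling.

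The 26 calls rest on 2 pups in litter 3. Without its male the median contrast of the 44 genes was -0.17, and without its female -0.25, beside -0.0032 and -0.0063 over all genes. Fewer of the 26, and fewer of all genes, were then called. In these fits the litter rests on 1 pup that is assumed to vary like the others. Ndufaf5, Ndufaf4, Ndufb6, Ndufa13, Ndufb10, Ndufv3, Ndufa11 and Ndufs8 held the call whichever library was dropped, while 18 lost it on dropping some library. Fibroblast markers moved with the litter, summing to 41.7 to 60.4 CPM there and 122 to 262 CPM elsewhere, and 7 of the 9 were called lower. Endothelial markers summed to 18.0 to 19.6 CPM, within the 16.0 to 148 CPM of the others, and 5 of 8 were called lower. Mural markers summed to 552 to 555 CPM against 479 to 606 CPM, with 4 of 7 lower. Macrophage markers summed to 5.16 to 9.15 CPM against 3.80 to 8.27 CPM, with 0 of 2 tested genes called. Erythroid markers summed to 185 to 531 CPM against 98.5 to 246 CPM, with 2 of 6 higher. The median contrast was -1.83 for fibroblast, -1.44 for endothelial and -1.82 for mural markers, and the mural sum does not show it. Among the 10 cardiomyocyte markers, 5 were lower, namely Myh6, Actc1, Myl3, Tnnc1 and Atp2a2, and 1 was higher, Nppa, a natriuretic peptide gene, by 2.26 on the log2 scale. The part of these cells in the complex I differences was not tested, and in bulk RNA fewer cells of a type cannot be told apart from less RNA per cell.

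**Figure D2:**
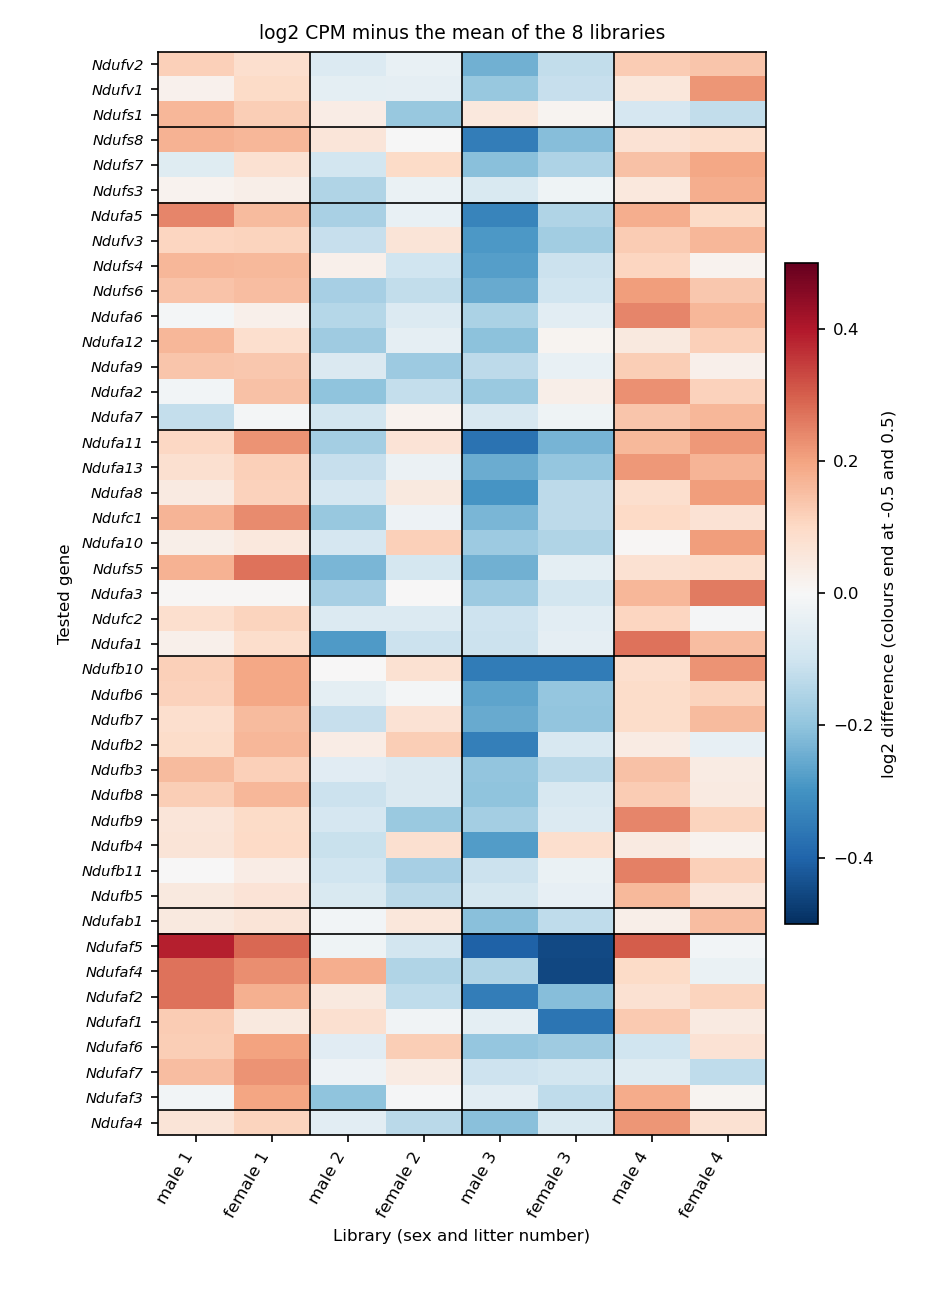
Difference of 43 of the 44 tested genes in each library from the gene's own mean over the 8 libraries, in log2 CPM after TMM scaling, with genes grouped by role and libraries ordered by litter. At this scaling, unlike when libraries are scaled to cardiomyocyte markers, both libraries of litter 3 are mostly blue (lower), and those of litters 1 and 4 are mostly red (higher).

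Summed over the 45 genes, the level was 12070 ± 183 CPM in litter 1, 10811 ± 124 CPM in litter 2, 10220 ± 402 CPM in litter 3 and 12226 ± 51.9 CPM in litter 4 (SD, n = 2). The 2 libraries of litter 3, at 9936 and 10504 CPM, were below the range of 10723 to 12263 CPM of the other 6. Litter 2 was next lowest at this TMM scaling. With marker scaling the median contrast was lowest in litter 2, at -0.18, and was 0.07 in litter 3, so litters 2 and 3 formed no lower pair there. Litters 1 and 4 differed from each other by less than the SD within litter 1.

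The core subunits carry the electrons. Of the 3 at the NADH end, 2 fell in litter 3 and 0 rose (0 and 1 with marker scaling). Ndufv1, which binds NADH and the flavin, had 674 and 711 CPM in the male and female of litter 3 and 744 to 896 CPM in the other 6 libraries (log2 fold change -0.20, SE 0.06, edgeR adjusted p = 0.0182). Its libraries of litter 3 were the lowest, but the call was lost without either pup of litter 1 or of litter 3, and the value turned to 0.09 with marker scaling. Ndufv2, an iron-sulfur protein, had 450.1 and 487 CPM in the male and female of litter 3 and 507 to 585 CPM in the other 6 libraries, again with no overlap, and a log2 fold change of -0.24 (edgeR adjusted p = 0.00793, lost without the male of litter 3).

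Ndufs1, the largest core subunit and the carrier of several iron-sulfur clusters (chr1:63143596-63176833, minus strand, 21 exon blocks), was the exception. It had 868, 793, 803 and 731 CPM in the males of litters 1 to 4 and 843, 679, 781 and 710.0 CPM in the females. Litter 3 lay within the range of the others, and litters 2 and 4 were lower than litter 1. The contrast for litter 3 was 0.05 (SE 0.06, edgeR adjusted p = 0.604), the 1 value above 0 among the 44 genes, and its contrast for litter 1 was 0.19 (edgeR adjusted p = 0.0481), a call that held in 2 of the 8 fits without 1 library.

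At the quinone end, 2 of 4 core subunits fell in litter 3 and 0 rose (0 and 1 with marker scaling). Ndufs8, which holds iron-sulfur clusters on the way to the quinone (chr19:3908863-3912774, minus strand), had 209, 193, 146 and 195 CPM in the males of litters 1 to 4 and 208, 185, 159.8 and 197 CPM in the females. Both libraries of litter 3 were below the other 6, whose lowest value was 185 CPM, and the contrast was -0.37 (SE 0.06, edgeR adjusted p = 0.000947). Ndufs7, the carrier of the last cluster before the quinone, had 203 and 211 CPM in the male and female of litter 3. It had 220.4 to 268 CPM in the other 6 libraries and also fell (log2 fold change -0.24, SE 0.06, edgeR adjusted p = 0.00952). Without the female of litter 3 its contrast was -0.21 and the call was lost. Ndufs3, another core subunit, was not called, at -0.07 on the log2 scale, and its libraries of litter 3 overlapped with the others.

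Among the 9 accessory subunits of the matrix arm, 4 fell in litter 3 and 0 rose (0 and 1 with marker scaling), with a median of -0.14. Ndufa5 had 316, 238, 212 and 302 CPM in the males of litters 1 to 4 and 297, 260.1, 240.2 and 285 CPM in the females. Its male of litter 3 was the lowest of all, its female overlapped with the male of litter 2, and the contrast was -0.32 (edgeR adjusted p = 0.0049, lost without the male of litter 3). Ndufv3 had 206 and 222 CPM in the male and female of litter 3 and 232 to 282 CPM in the other 6 libraries and fell by 0.31 on the log2 scale (edgeR adjusted p = 0.00269). Ndufs6, a zinc-binding subunit, had 257, 207, 195 and 269 CPM in the males of litters 1 to 4 and 259, 214, 217 and 255 CPM in the females. Litters 2 and 3 overlapped at the low end and litters 1 and 4 stood apart at the high end, with contrasts of 0.20, -0.19, -0.23 and 0.23 for litters 1 to 4. Ndufs4, loss of which causes an encephalopathy in mice, fell by 0.25 (edgeR adjusted p = 0.015), and like Ndufs6 it was not called without the male of litter 3. Ndufa2, Ndufa6, Ndufa7, Ndufa9 and Ndufa12 had contrasts between -0.14 and -0.07, and none was called.

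In the proximal membrane arm, 6 of 9 accessory subunits fell in litter 3 (0 with marker scaling), with a median of -0.22. Ndufa11, a membrane protein that holds the membrane arm together (chr17:56717767-56722141, plus strand, 3 exon blocks), had 258, 214, 186 and 269 CPM in the males of litters 1 to 4 and 281, 252, 205 and 279 CPM in the females. Both libraries of litter 3 were the lowest, closest to the male of litter 2, and the contrast was -0.40 (SE 0.06, edgeR adjusted p = 0.000498). Its promoter is among those shown above with the strict NRF1 palindrome. Ndufa13, also known as GRIM-19, had 381, 333, 303 and 418 CPM in the males of litters 1 to 4 and 392, 354, 315 and 406 CPM in the females. Here too litter 3 did not overlap, and the contrast was -0.30 (edgeR adjusted p = 0.00251), with 24.0% of its transcript windows shared with Tssk6, which overlaps it on the opposite strand. Ndufa8, on the intermembrane side, had 219.8 and 246 CPM in the male and female of litter 3 and 254 to 312 CPM in the other 6 libraries (log2 fold change -0.28, SE 0.06, edgeR adjusted p = 0.00301, lost without the male of litter 3). Ndufa10, related to nucleoside kinases, had 470.0 and 479.9 CPM in the male and female of litter 3 and 503 to 617 CPM in the other 6 libraries with a contrast of -0.22. It and Ndufa3, at -0.18, had small differences that turned to 0.07 and 0.11 with marker scaling. Their calls were lost without single pups of litters 1 and 3, for Ndufa3 also without the female of litter 2. In those fits the contrast was -0.17 and -0.20 for Ndufa10 and -0.16 to -0.20 for Ndufa3.

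Ndufc1 fell by 0.24 on the log2 scale (edgeR adjusted p = 0.0113). Without the female or the male of litter 3 its contrast was -0.26 and -0.22, and the call was lost. Ndufc2, Ndufs5 and Ndufa1 were not called. Ndufs5, whose promoter is shown for contrast, had 37.7, 28.4, 28.2 and 35.2 CPM in the males of litters 1 to 4 and 40.3, 31.3, 32.3 and 35.3 CPM in the females. Its lowest libraries were the males of litters 2 and 3, so litter 3 did not stand apart, and the contrast was -0.19 (edgeR adjusted p = 0.0613).

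The distal membrane arm held the clearest case. Ndufb10, an intermembrane-side subunit with disulfide bonds (chr17:24722060-24724478, minus strand, 3 exon blocks), had 457, 421, 329.6 and 446 CPM in the males of litters 1 to 4 and 481, 443, 329.5 and 490.5 CPM in the females. The pups of litter 3 were alike and lay below the other 6, whose lowest was 421 CPM. The contrast was -0.47 (SE 0.06, edgeR adjusted p = 0.000126), and 0% of its transcript windows occur in another gene. Of the 10 subunits of this arm, 6 fell and 0 rose (0 and 1 with marker scaling), with a median of -0.21.

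Ndufb6 had 126 and 132 CPM in the male and female of litter 3 and 146 to 173 CPM in the other 6 libraries, and Ndufb7, another disulfide-bonded subunit, had 207 and 215 CPM in the male and female of litter 3 and 227 to 275 CPM in the other 6 libraries. Both fell without overlap, by 0.30 and 0.30 on the log2 scale (edgeR adjusted p = 0.00214 and 0.00259), and 28.2% of the windows of Ndufb6 are shared with Smim27 on the opposite strand. Ndufb2 had 50.9, 48.9, 37.6 and 49.1 CPM in the males of litters 1 to 4 and 53.4, 51.9, 45.1 and 46.4 CPM in the females. Its male of litter 3 stood far below the rest and its female just below the female of litter 4, and without that male the contrast went from -0.28 to -0.16 and the call was lost. Ndufb7 was not called without the female of litter 3. Ndufb3 and Ndufb8 were called at -0.22 and -0.19, but not without either pup of litter 3 or the male of litter 1. Ndufb8 kept its call in 2 of the 8 fits without 1 library, and turned to 0.10 with marker scaling.

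Ndufb4, Ndufb5, Ndufb9 and Ndufb11 were not called in litter 3. Ndufb9, the gene with the highest level, had 555, 502, 473 and 630.4 CPM in the males of litters 1 to 4 and 569.9, 469, 508 and 575 CPM in the females. Its pups of litters 2 and 3 overlapped and the male of litter 4 was highest, and 103 of its 605 windows are shared with Gm49356.

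Ndufab1, the mitochondrial acyl carrier protein that also serves fatty acid and lipoate synthesis, had 134 and 142 CPM in the male and female of litter 3 and 154 to 173 CPM in the other 6 libraries. It fell by 0.23 on the log2 scale (edgeR adjusted p = 0.0117). Without the female or the male of litter 3 the contrast was -0.23 and -0.22, and the call was lost. Ndufa4, first assigned to complex I and later to cytochrome c oxidase, had 599, 553, 495 and 668 CPM in the males of litters 1 to 4 and 619.5, 521, 543 and 603 CPM in the females. The male of litter 3 was lowest, the female overlapped with litter 2, and the contrast of -0.19 (edgeR adjusted p = 0.0461) was lost in 5 of the 8 fits without 1 library, among them that without the male of litter 3. It turned to 0.11 with marker scaling.

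Of the 7 assembly factors named Ndufaf, 4 fell in litter 3 (0 with marker scaling). Ndufaf5, which modifies an arginine of Ndufs7 during assembly (chr2:140170649-140203689, plus strand, 12 exon blocks), had the most negative contrast of the 44 genes. It had 26.9, 20.2, 15.5 and 25.2 CPM in the males of litters 1 to 4 and 25.007, 19.2, 14.9996 and 20.3 CPM in the females. Litter 3 was lowest and litter 1 high, with the male of litter 4 between the pups of litter 1, and the contrast was -0.57 (SE 0.09, edgeR adjusted p = 0.000715). Ndufaf4, a partner of Ndufaf3 in building the quinone module (chr4:24898083-24905001, plus strand), had 103, 96.3, 76.6 and 90.8 CPM in the males of litters 1 to 4 and 99.6, 76.5, 62.0 and 83.0 CPM in the females. Here the female of litter 3 was lowest and the male overlapped with the female of litter 2, and the contrast was -0.40 (SE 0.07, edgeR adjusted p = 0.00197). Both genes carry the strict NRF1 palindrome shown above. Of the 39 genes with a promoter, 26 were called lower in litter 3 at TMM scaling, among them all 3 with the palindrome. A link between motif and litter was not tested.

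Ndufaf2, a relative of Ndufa12 that holds its place late in assembly, had 12.9 and 14.2 CPM in the male and female of litter 3 and 15.02 to 19.8 CPM in the other 6 libraries and a contrast of -0.38 (edgeR adjusted p = 0.0123). It lost the call without the male of litter 3, and its level is uncertain because of the windows it shares with the opposite strand. Ndufaf1, part of the complex that builds the proximal membrane arm, had 45.5 and 36.5 CPM in the male and female of litter 3 and 46.5 to 51.5 CPM in the other 6 libraries, with a contrast of -0.27 that became -0.16 and lost the call without the female. Ndufaf3, Ndufaf6 and Ndufaf7 were not called, at -0.11, -0.24 and -0.13. The eighth factor of the series, Ndufaf8, stands in the table under the older symbol 1810043H04Rik and is no member by the rule. Its contrast was -0.14 (edgeR adjusted p = 0.305).

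**Figure D3:**
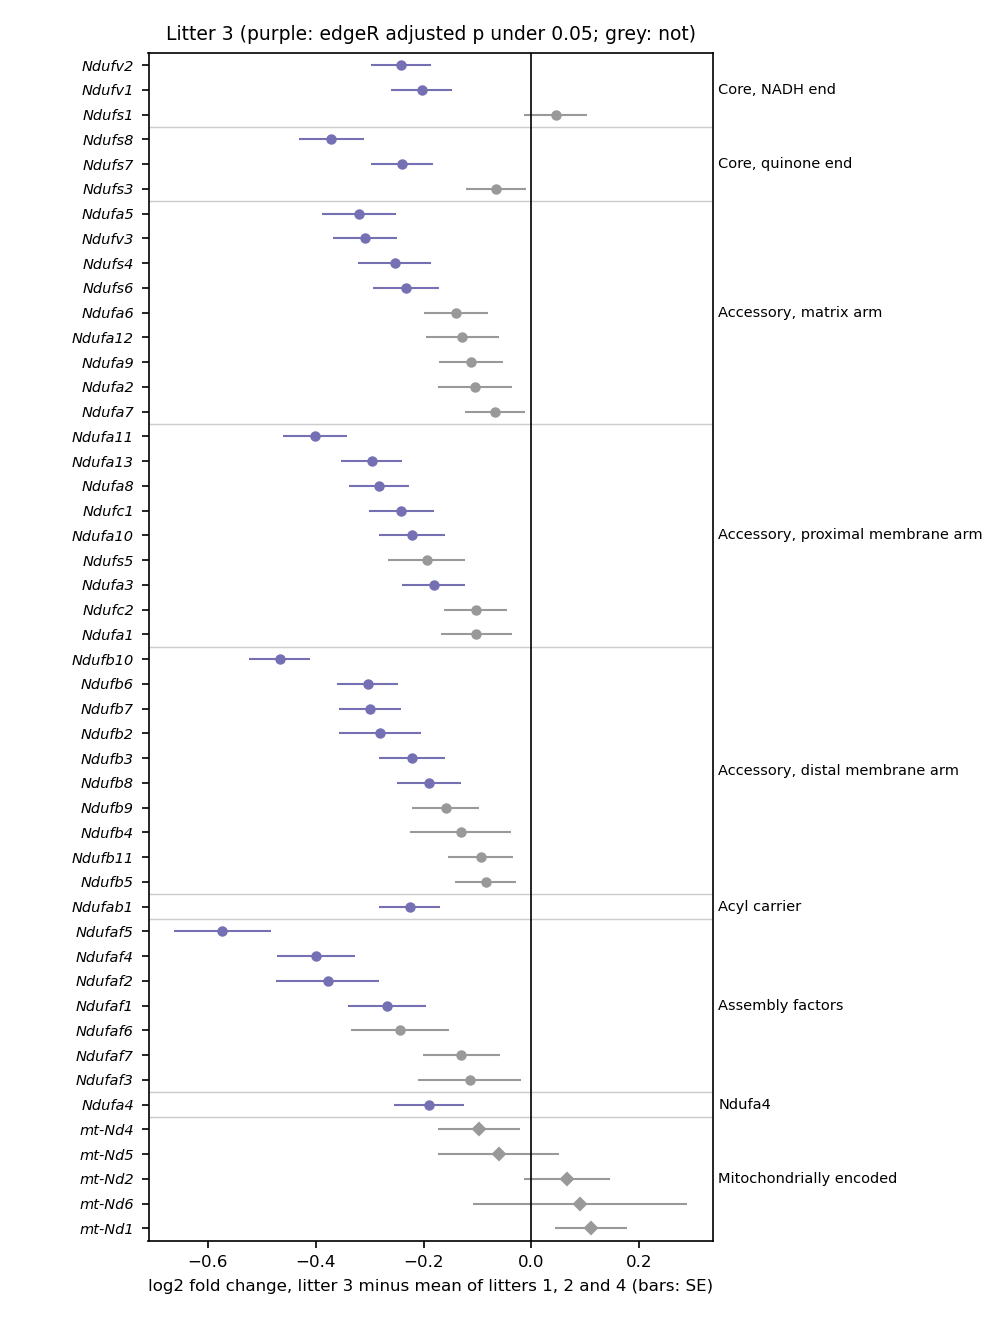
Contrast of litter 3 with the mean of the other litters for 43 of the 44 tested genes, as log2 fold change with its SE from edgeR, grouped by role, with mitochondrially encoded subunits as diamonds at the bottom. At TMM scaling 42 of the 43 nuclear genes drawn lie below 0 and 26 are past the threshold (purple), which does not hold when libraries are scaled to cardiomyocyte markers (11 of all 44 below 0), and no mt-Nd gene is past it.

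Ratios within a library do not depend on the scaling. Ndufs1 and Ndufb10 were picked from near opposite ends of the litter 3 contrasts, so their ratio describes that difference and does not support it. The ratio of their counts was 1.90, 1.89, 2.44 and 1.64 in the males of litters 1 to 4 and 1.75, 1.53, 2.37 and 1.45 in the females. Both libraries of litter 3 exceeded all other 6, and within each sex litter 4 was lowest. With each library scaled to the sum of the 44 tested genes, 5 genes fell in litter 3 relative to the rest, namely Ndufaf5 by 0.38, Ndufb10 by 0.27, Ndufa11 by 0.21, Ndufaf4 by 0.20 and Ndufs8 by 0.18 on the log2 scale. Ndufs1 alone rose, by 0.24 (edgeR adjusted p = 0.00597). With marker scaling, Ndufaf5 and Ndufb10 were the most negative, at -0.28 and -0.17 (edgeR adjusted p = 0.0538 and 0.0616). Ndufs1, Ndufs3, Ndufa7 and Ndufb5 were the 4 genes that rose in litter 3, by 0.34, 0.23, 0.23 and 0.21. Differences between genes of a library carry over from scaling to scaling by construction, while the sign for the whole set depended on it.

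Across the 44 genes, the litter 3 contrast had a Spearman correlation of 0.01 with exon length, -0.15 with the length of the longest transcript, 0.15 with level and 0.19 with the share of windows found in other genes. These are descriptions over genes that share the same 8 libraries. The coefficient of variation over the 8 libraries was largest, among tested genes, in Ndufaf5 (21.3%), Ndufaf4 (16.2%), Ndufa11 (15.002%), Ndufb10 (14.8%) and Ndufaf2 (14.1%), and smallest in Ndufc2 (6.11%), Ndufs3 (6.82%) and Ndufb5 (6.95%).

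**Figure D4:**
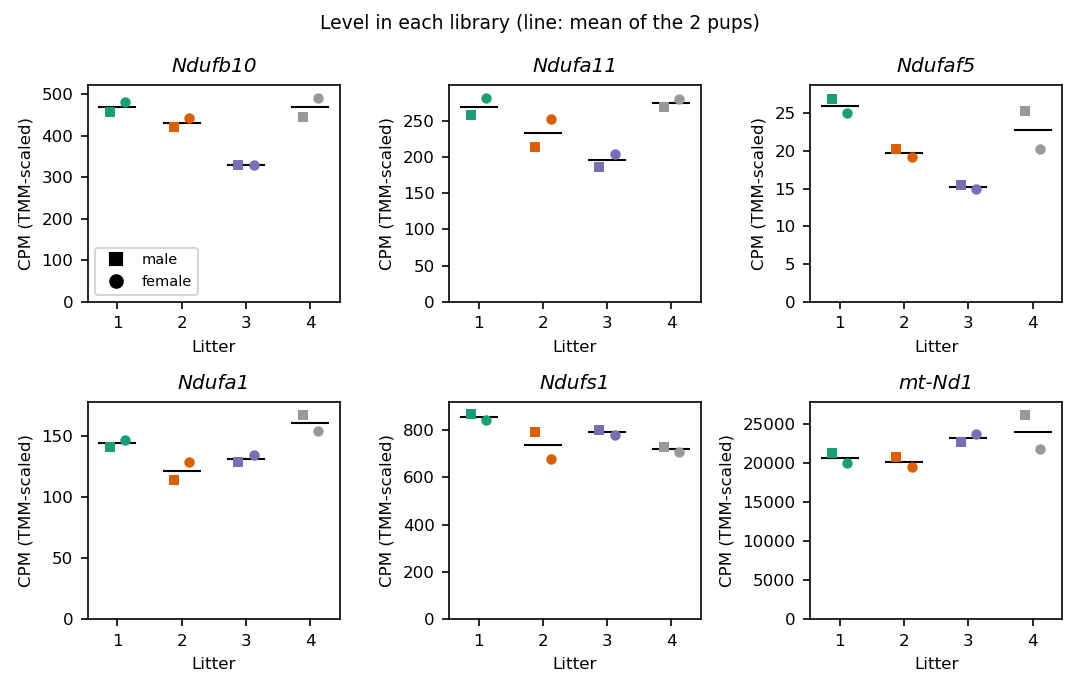
Level of 5 complex I genes and of the mitochondrially encoded mt-Nd1 in each library, as CPM after TMM scaling on axes that start at 0, by litter, with squares for males, circles for females and a line at the mean of the 2 pups. Ndufb10, Ndufa11 and Ndufaf5 are lowest in litter 3 at this scaling (no longer called lower when libraries are scaled to cardiomyocyte markers), Ndufa1 is lowest in litter 2, and Ndufs1 and mt-Nd1 of litter 3 lie within the range of the others.

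At TMM scaling, litters 1 and 4 had the higher levels. Each litter contrast uses all 8 libraries, so the 4 are not independent, and litter 3 is part of the mean against which each other litter is set. In litter 1, the median was 0.14 with 43 of 44 genes above 0, against 0.07 both without litter 3 and with marker scaling, where 6 and 7 genes were below 0. At TMM scaling 15 rose (1 with marker scaling) and 0 fell, against 7.86% and 5.41% of all genes. Ndufaf5 rose by 0.45 (edgeR adjusted p = 0.00366) and Ndufaf4 by 0.34 (0.00814) on the log2 scale, and Ndufaf2 and Ndufaf7 rose as well, so that 4 of the 7 assembly factors did. Ndufs5 rose by 0.30 and Ndufc1 by 0.27, and the others past the threshold were Ndufa5, Ndufs8, Ndufa11, Ndufs4, Ndufb10, Ndufb6, Ndufs6, Ndufs1 and Ndufb8, at 0.19 to 0.27. The count was 2 without litter 3, where 7.03% of all genes were called in either direction, so the excess was not seen there. It was 1 without the litter 1 male, 0 without its female and 8 without the female of litter 2, where 2.58%, 2.96% and 11.5% of all genes were called, against 13.3% with all libraries.

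In litter 4, the median was 0.14 with 41 of 44 genes above 0, against 0.08 without litter 3 and 0.03 with marker scaling. At TMM scaling 13 rose (0 with marker scaling) and 0 fell, against 4.71% and 5.8% of all genes. None of the 7 assembly factors was among them. Ndufa1, an X-linked membrane subunit needed for assembly (chrX:37187588-37191163, minus strand), had 141, 114, 128 and 167 CPM in the males of litters 1 to 4 and 147, 129, 134 and 154 CPM in the females. Its pups of litter 4 were the highest and those of litter 2 among the lowest, with a contrast of 0.28 for litter 4 (edgeR adjusted p = 0.018). Ndufa3 rose by 0.28, Ndufa6 by 0.27, Ndufa13 by 0.26, Ndufa11 by 0.25 and the X-linked Ndufb11 by 0.25. Ndufb9, Ndufa2, Ndufs6, Ndufs7, Ndufb10, Ndufa7 and Ndufa8 rose by 0.20 to 0.24. By place, 5 of 9 proximal membrane, 4 of 9 matrix and 3 of 10 distal membrane accessory subunits and 1 of 7 core subunits were called.

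With the male of litter 4 left out the median in litter 4 was 0.13, and with its female left out 0.18. The litter 4 count of 13 fell in both fits, as did the share of all genes. Both also fell without either pup of litter 1 and without the male of litter 2 or 3. Leaving out a whole litter or changing the scaling lowered the litter 4 count as well. It was 7 without litter 3, where 14.3% of all genes were called in either direction, a share close to that of the 44. It was 4 with library totals as the scaling (12.8% of all genes in either direction) and 0 with marker scaling (10.2%), where 14 of the 44 were below 0. Without the male of litter 4 the share of all genes was 2.3%. In litter 2, the median was -0.07 with 34 genes below 0. It was -0.17 with 43 below 0 without litter 3, and -0.18 with 44 below 0 with marker scaling, where litter 2 and not litter 3 had the lowest median. At TMM scaling 1 gene fell and 0 rose, against 0.879% and 3.3% of all genes. That gene was Ndufa1 (log2 fold change -0.26, SE 0.07, edgeR adjusted p = 0.0498), and the call was lost in 7 of the 8 fits without 1 library, each but that without the female of litter 4.

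Markers of other cells moved with these litters as well. In litter 4, 7 of 9 fibroblast markers were called higher, with a median of 0.59, and 4 of 10 cardiomyocyte markers were higher and 1 lower. In litter 2, 8 of 8 endothelial, 7 of 9 fibroblast and 3 of 7 mural markers were called higher and 0 cardiomyocyte markers were called. In litter 1, 3 of 9 fibroblast and 2 of 10 cardiomyocyte markers were higher, and 1 cardiomyocyte and 1 of 7 mural markers were lower. In litter 4, 1 mural marker was higher, and 1 mural and 1 of 2 tested macrophage markers were lower. Their part in the complex I values was not tested.

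Males and females were compared next, the contrast that the sampling of 1 pup of each sex from every litter allows. In the model with sex alone, 0 of the 44 genes passed the threshold, against 0.0436% of all genes, and 0 had an unadjusted p under 0.05, against 2.22%. The median difference, male minus female, was -0.04 and the range was from -0.14 to 0.19. Single libraries moved this median, from -0.11 without the male of litter 4 to 0.01 without the male of litter 3, though dropping 1 pup also unbalances the litters between the sexes. With litter as a block it was -0.04, and from -0.06 to -0.04 with each whole litter left out in turn. The sum of the 45 genes was 11197 ± 1057 CPM over the 4 males and 11466 ± 898 CPM over the 4 females (SD), and DESeq2 called 0 as well. With litter as a block, 0 of 44 passed, against 0.211%, and 5 had an unadjusted p under 0.05, against 11.6% of all genes. In the same blocked fit, 5 of 9 fibroblast markers were called higher in males (median 0.67) and 1 of 8 endothelial markers lower (median -0.71), with 0 cardiomyocyte markers called, and their part in the complex I values was not tested. The lowest adjusted p-value was then 0.295, in Ndufaf4, at 0.20 on the log2 scale. Ndufaf4 was higher in the male of all 4 litters, as its values above show. The X-linked Ndufa1 and Ndufb11 differed by -0.04 and 0.03 without the block.

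The gene of smallest unadjusted p without the block was Ndufb4, at 20.0 ± 2.16 CPM over males against 21.9 ± 0.54 CPM over females (SD, n = 4). Ndufa10 had 513 ± 33.6 CPM and 557 ± 57.8 CPM, and Ndufa8 had 259 ± 29.6 CPM and 282 ± 27.6 CPM. For Ndufaf1 the values were 49.5 ± 2.82 CPM for males and 45.1 ± 5.77 CPM for females. Over all litters males and females overlapped in each of these genes. Within litters, Ndufa8 and Ndufa10 were lower in the male of all 4, Ndufaf1 was higher in the male of all 4, and Ndufb4 was lower in the male of 3. These genes and Ndufaf4 were picked for the smallest p-values by sex, so agreement over litters follows in part from that choice. With litter as a block, the adjusted p-values from edgeR were 0.369 for Ndufa8, 0.428 for Ndufa10 and 0.416 for Ndufaf1.

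The other part of complex I, the mt-Nd genes of mitochondrial DNA, showed no call in litter 3. Of 7 such genes, 5 were tested, and mt-Nd3 and mt-Nd4l had at most 0.291 and 0.333 CPM in any library. For litter 3, 0 of the 5 were called (2 rose with marker scaling), with contrasts from -0.10 in mt-Nd4 to 0.11 in mt-Nd1. mt-Nd1 had 21284, 20774, 22679 and 26148 CPM in the males of litters 1 to 4 and 19939, 19458, 23624 and 21818 CPM in the females. Its pups of litter 3 lay within the others and the male of litter 4 was highest. mt-Nd4 rose in litter 4 (log2 fold change 0.30, SE 0.08, edgeR adjusted p = 0.028), again with the male of that litter at the top. The ratio of summed complex I counts to summed mt-Nd counts was 0.207, 0.199, 0.165 and 0.165 in the males of litters 1 to 4 and 0.224, 0.182, 0.173 and 0.205 in the females. It was lowest in litter 3 and in the male of litter 4, so litter 3 did not stand apart in it.

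Of 12 other assembly factors, 2 fell and 1 rose in litter 3 (0 and 4 with marker scaling). That is 25% called, no more than the 28.3% of all genes (52.5% with marker scaling). Tmem126b and Timmdc1, which build the membrane arm together with Ndufaf1, fell by 0.36 and 0.28 on the log2 scale (edgeR adjusted p = 0.0049 and 0.00829). Nubpl, which supplies iron-sulfur clusters, had 13.9 and 11.1 CPM in the male and female of litter 3 and 8.41 to 11.6 CPM in the other 6 libraries and rose (log2 fold change 0.35, SE 0.10, edgeR adjusted p = 0.0263), though its female overlapped with the others. Of the other respiratory genes, 5 of 13 of complexes II and III and 7 of 15 of the ATP synthase fell, with medians of -0.13 and -0.16, and 1 of the latter rose. With marker scaling 0 of either list fell, and 3 and 3 rose. The medians beside them are -0.22 for the complex I genes and 0.00013 for all genes, and the difference between the lists was not tested.

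Among 12 regulators of mitochondrial genes, 1 rose and 2 fell in litter 3 (7 and 0 with marker scaling). Here too 25% were called, no more than the 28.3% of all genes (52.5% with marker scaling). Ppargc1a, the coactivator PGC-1alpha, had 203, 199.8, 234 and 207 CPM in the males of litters 1 to 4 and 194, 179, 226 and 169 CPM in the females. Both pups of litter 3 were above the other 6, and it rose by 0.26 (SE 0.06, edgeR adjusted p = 0.00843). Tfam, the transcription factor of mitochondrial DNA, had 39.6 and 38.1 CPM in the male and female of litter 3 and 40.5 to 53.5 CPM in the other 6 libraries and fell by 0.29, and Gabpb1, a subunit of the ETS factor GABP, had 15.7 and 15.1 CPM in the male and female of litter 3 and 18.0 to 21.9 CPM in the other 6 libraries and fell by 0.35 (edgeR adjusted p = 0.0112 and 0.0178). Nrf1, whose product binds the palindrome, had 20.0, 20.9, 20.2 and 16.8 CPM in the males of litters 1 to 4 and 18.7, 18.3, 15.1 and 18.2 CPM in the females and a contrast of -0.09 (edgeR adjusted p = 0.573). Of 12 hypoxia-related genes, 3 rose and 7 fell (4 and 2 with marker scaling), among the former Hif3a by 1.75 on the log2 scale. These values are given beside the complex I values and their part in them was not tested.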

How the data were processed

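The deposited file is a single table of unnormalized counts, with 48440 gene symbols and 1 column for each of 8 libraries. Reads were single-end, from a stranded total RNA kit, while another label names poly(A) RNA. Per the submitters' processing notes, STAR 2.7.3a and build mm10 were used; the counting program, annotation and strand setting are not given in the sources used here. Each sample was mapped to its column by its title.

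The 13771 genes kept by filterByExpr on sex were scaled by TMM and fitted in edgeR 4.0.16 (R 4.3.3) with its quasi-likelihood F test. Litters were tested in a model of sex and litter (3 residual degrees of freedom) and sexes in a model of sex alone (6), with litter as a block beside it. P-values were adjusted by Benjamini-Hochberg over all genes, with a threshold of 0.05. SE is the size of the log2 fold change over the square root of F. Fits were tested on simulated counts in which few genes changed, as many up as down, a setting that cannot check the scaling. Sample titles give litter and sex but not whether a library holds a single pup or pooled hearts. In the model of sex and litter, p-values measure the spread between the 2 libraries of a litter after a common sex effect. In the model of sex alone, the spread also holds differences between litters. The estimated biological variation was 7.28% in the litter model and 17.3% in the model of sex alone.

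A gene counted among the 45 is not reported here by itself. The complex I genes and all lists were chosen with earlier results of these data known. By the rule for named genes, values (for some genes only ranges, means or contrasts) went to the 8 genes lowest in adjusted p in the litter test, the 5 largest and 5 smallest called litter 3 contrasts, the 5 highest and 5 lowest levels, the 5 smallest p-values by sex, and others singled out after their values were seen. Lengths, positions and shared 100-base windows come from GENCODE M21 (GRCm38, which is mm10), and promoters from RefSeq, whose orientation was checked: bases 21 to 40 after the start occur in a sense transcript of the gene for 40 of 41 windows. For RPKM, counts were divided by all exon bases in kilobases and by library total.

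The labels number samples by litter, so that a number pairs a male with a female of the same litter. After removal of sex means, the correlation across genes within the 4 pairs was 0.506, 0.503, 0.696 and 0.367, and pairs from different litters ranged from -0.482 to 0.27. Alternatives were library totals or DESeq2 size factors as scaling, DESeq2 1.42.0, no filter or a mean of 50 counts, no mitochondrial genes, no sex term, each library or litter left out and, added after the data were seen, litter 3 left out of the other contrasts and scaling to the sum of complex I genes or of 10 cardiomyocyte markers.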

Additional observations from a re-analysis of the deposited data

Results flagged for a closer look

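In 118 groups of 4 libraries (the males or the females, for each gene or summed list), the gap between the highest or lowest library and its nearest neighbour was set against the range of the group, and 4 groups exceeded Dixon's critical value for 4 samples. Chance gives about 1 in 20, or 5.9 of 118. Ndufb2, a distal membrane-arm subunit, had 37.6 CPM in the male of litter 3, and the other males had 48.9 to 50.9 CPM. Ndufa7, a matrix-arm subunit, had 199.7 CPM in the male of litter 4, against 167 to 171 CPM. The mitochondrially encoded mt-Nd4 had 15397 CPM in that same male, against 11112 to 11438 CPM. The summed mt-Nd genes had 54471 CPM in the female of litter 1, against 59737 to 60629 CPM in the other females.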

How the results depend on the processing

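Leaving out 1 library gave 18 to 29 of the 44 genes in the litter test (32 as reported), 0 to 16 higher in litter 1 (15), 0 to 2 lower in litter 2 (1), 12 to 29 lower in litter 3 (26) and 0 to 10 higher in litter 4 (13). Over all genes, too, fewer were called in each of these fits for the litter test, litter 3 and litter 4. Without a whole litter, the litter test gave 21 without litter 1 (22.7% of all genes) and 12 without litter 3 (13.7%). Over all genes it gave 1898 without litter 3 (4427 as reported). Without litter 3, 2 were higher in litter 1, 2 lower in litter 2 and 7 higher in litter 4. Of all genes, 7.03%, 1.95% and 14.3% were then called in either direction, against 13.3%, 4.18% and 10.5% as reported. With no sex term, 7 were higher in litter 1, 0 lower in litter 2 and 5 higher in litter 4. These shares were then 9.13%, 2.65% and 6.06%. With library totals, 4 were higher and 1 lower in litter 4 (12.8% of all genes) and 0 lower in litter 2 (4.39%). With no filter, 1 was higher and 2 lower in litter 2 (5.03%), and with a mean of 50 counts 0 were lower there (3.09%).

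Scaled to the sum of the complex I genes, the litter test gave 6 of them and 7238 over all genes, and litter 3 gave 1 higher and 5 lower. There Ndufb8, Ndufa4 and Ndufa3 turned to 0.0037, 0.0034 and 0.013. Scaled to cardiomyocyte markers, the litter test gave 6, litter 1 gave 1 higher, litter 3 gave 4 higher and 0 lower, and litter 4 gave 0 higher. Over all genes that scaling called 47.1%, 8.82%, 52.5% and 10.2% in these 4 tests, so the complex I genes were below the share of all genes in each. There Ndufa10, Ndufv1, Ndufb8, Ndufa4 and Ndufa3 turned to 0.071, 0.091, 0.10, 0.11 and 0.11 in litter 3. The cause of these shifts was not tested. The median level over the genes was 216 RPKM with the longest transcript as length, against 131 RPKM. With litter as the replicate block, 0 genes differed by sex, as without it, while over all genes 29 were called with the block and 6 without. Counts of complex I genes under the remaining settings stayed within 1.5 times of those reported.

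With 2 pups in each litter, a contrast between litters rests on 3 residual degrees of freedom, and the leave-one-out fits show how far single pups carry it. The shallowest library, the female of litter 3, had 14226342 counts. Ndufa4l2, with 2 to 23 counts, did not pass the filter on low counts and was fitted only in the setting with no filter. Levels of genes that overlap a gene on the opposite strand, 17 of the 45, are uncertain because the strand setting of counting is not stated.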
